A study of Mus musculus with 8 samples.

Results

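GC-rich protein-coding promoters are the CpG-dense starts from which most broadly used genes are transcribed. Here they are described as peak regions in chromatin immunoprecipitation sequencing (ChIP-seq) of mouse embryonic stem cells (mESCs) in which EHMT2, a histone H3K9 methyltransferase, carries a hemagglutinin (HA) tag. A peak was counted where its summit lay within 1 kb of a transcript start of a protein-coding gene, its GC content was 55% or more, and its summit lay outside soft-masked runs of 5 kb or more. By this rule, 133 of 11010 peaks were members in the C29F4 DMSO list, 3472 of 40816 in the ab9110 DMSO list, 5514 of 16324 in the ab9110 dTAG list and 177 of 2050 in the dTAG input list. Over the 4 lists these were 9296 of 70200 peaks. The rule used position and base composition only, not peak height.

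All cells were the EHMT2-dTAG-mcherry line on a BL6/129 hybrid background, in which the endogenous Ehmt2 stop codon is replaced by an in-frame degron, HA tags and an mCherry reporter. The degrader dTAG removes the tagged protein, and DMSO is its solvent; both were given for 24 h. C29F4 and ab9110 are HA antibodies, and input is chromatin sequenced without pulldown. The C29F4 list came from DMSO-treated cells of 2 independent clones merged before peak calling, and each ab9110 condition (DMSO, dTAG) was 1 library, so no value below has a replicate error. The ab9110 ChIP was done apart from the C29F4 ChIP, so that antibody and experiment cannot be told apart. The libraries differed in depth, with a mean coverage of 3.64 fragments with C29F4 and of 2.11 (DMSO) and 1.23 (dTAG) with ab9110, and 0.978 in the input. Intervals in brackets are exact (Clopper-Pearson) 95% binomial intervals of counting error, and with peaks as the counted units no p-value was calculated.

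Promoters rich in GC are mostly CpG islands, stretches that keep their CpG dinucleotides because they are usually unmethylated in the germline. They lack a fixed core element, are open in nearly every cell type and drive housekeeping genes as well as, when held by Polycomb, the regulators of development. EHMT2 acts in a complex with EHMT1 and writes H3K9me2, a mark of repressed chromatin that active CpG islands generally lack, and a set of CpG-rich germline gene promoters is among its known targets in mESCs.

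The sequences below show 3 members, each with 50 bases on either side of the summit on the plus strand of mm10 with no annotated exon in the window, and capitals mark every CpG. They show how CpG density differed between a promoter called in every ChIP list, one called in both DMSO lists alone, and one called with C29F4 alone. Ndrg3, which encodes a member of the NDRG family, held 6 CpG at chr2:156992120-156992220, outside annotated transcripts and upstream of the start, and the window contained an NRF1 and a YY1 motif. Rab7, which encodes a small GTPase of late endosomes, held 2 at chr6:88045348-88045448, upstream of the start. Cplx1, which encodes the synaptic SNARE regulator complexin, held 3 at chr5:108549687-108549787, in an intron.
Ndrg3: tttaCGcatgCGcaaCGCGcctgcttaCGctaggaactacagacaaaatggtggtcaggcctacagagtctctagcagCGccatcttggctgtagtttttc
Rab7: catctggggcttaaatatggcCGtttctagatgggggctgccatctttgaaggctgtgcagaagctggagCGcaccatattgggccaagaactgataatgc
Cplx1: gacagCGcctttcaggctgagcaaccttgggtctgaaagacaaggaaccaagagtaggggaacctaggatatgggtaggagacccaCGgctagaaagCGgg

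The lists differed in how much of each lay at GC-rich promoters. With ab9110, members made up 8.51% of the peaks in DMSO (8.24 to 8.78%) and 33.8% after dTAG (33.1 to 34.5%). They were 1.21% of the C29F4 list (1.01 to 1.43%) and 8.63% of the input list (7.45 to 9.93%). GC-poor protein-coding promoters, defined in the same way below 55% GC, made up 4.80% (DMSO) and 6.72% (dTAG) with ab9110, 3.29% with C29F4 and 3.41% in the input. Thus the C29F4 list held more GC-poor than GC-rich promoter peaks (362 against 133), whereas the ab9110 dTAG list held 1097 against 5514. Members were the only one of the 4 classes of peaks (GC-rich promoters, GC-poor promoters, long repeats, elsewhere) with a larger count after dTAG than in DMSO, 5514 against 3472, although the dTAG library had 58.2% of the DMSO coverage. With a q-value under 0.001 in place of the authors' 0.05, the dTAG list held 3038 members (50.9% of its peaks) and the DMSO list 1605 (10.9%), and the input list kept 5 of 190 peaks (2.63%).

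**Figure D1:**
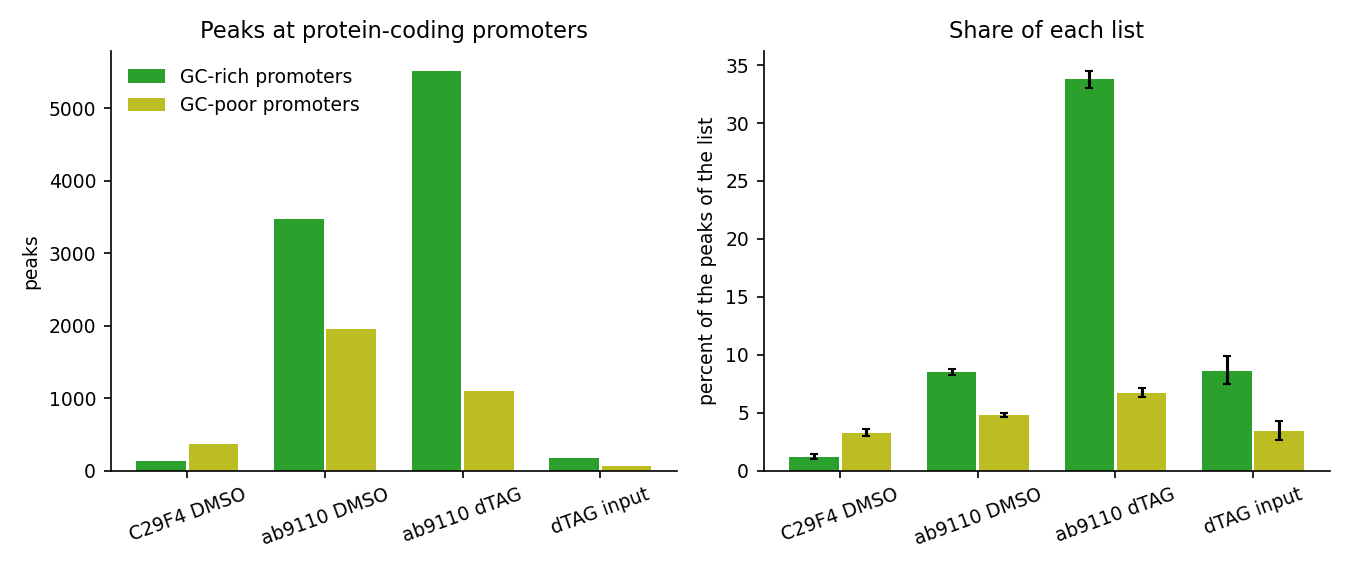
Left, number of peaks at GC-rich and GC-poor protein-coding promoters in each list; right, the same as percent of the peaks of the list, with exact 95% intervals for counting error. GC-rich promoters reach 33.8% of the ab9110 dTAG list and 1.21% of the C29F4 list.

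By the rule every summit lay within 1 kb of a start, so positions are compared only within that window. With ab9110, the median width of members was 478 bp in DMSO and 728 bp after dTAG (394 and 425 bp for peaks elsewhere), beside 452 bp with C29F4 and 346 bp in the input (446 and 202 bp elsewhere). Summits lay within 100 bp of a start for 55.2% of ab9110 DMSO members (53.5 to 56.8%) and 56.2% of dTAG members (54.9 to 57.5%), against 34.6% of C29F4 members (26.6 to 43.3%) and 45.8% of input members (38.3 to 53.4%). At GC-poor promoters the same share was 28.2% in ab9110 DMSO, 38.6% after dTAG and 14.6% with C29F4. The side of the start differed as well. The median summit was 9 bp upstream of the nearest start in ab9110 DMSO, 2 bp downstream after dTAG, 65 bp downstream with C29F4 and 29 bp downstream in the input. An annotated exon held the summit of 49.5% of DMSO members, 54.3% of dTAG members and 57.1% of C29F4 members. Starts of 2 or more protein-coding genes lay within 1 kb of the summit for 15.0% of DMSO, 14.5% of dTAG and 4.51% (1.67 to 9.56%) of C29F4 members. The input share was 15.8% (10.8 to 22.0%). Among the 12832 genes with a start in a 1000 bp window of 55% GC or more, it was 17.7% (17.1 to 18.4%).

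**Figure D2:**
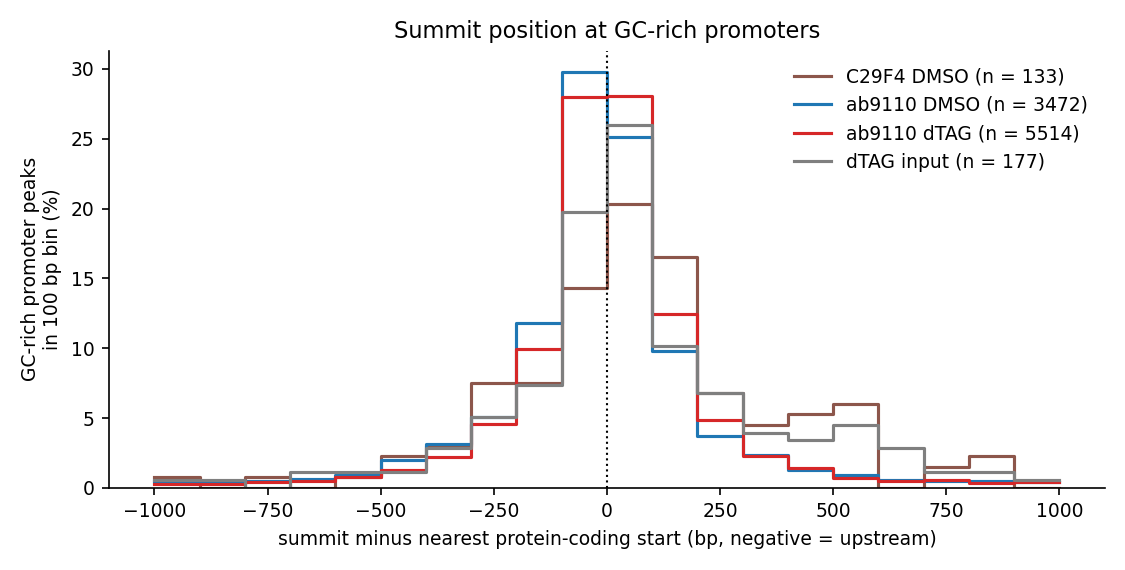
Distance from the summit to the nearest protein-coding start in 100 bp bins (negative is upstream) as percent of the GC-rich promoter peaks of each list. The ab9110 lists peak in the bins on either side of the start, and the C29F4 and input lists are broader on the downstream side.

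The medians of base composition differed between the lists, but the GC limit of the rule cuts off the lower GC values in every list. The median GC content of ab9110 members was 62.4% in DMSO and 64.6% after dTAG, and that of C29F4 and input members 61.0% and 63.7%. Observed over expected CpG, in 500 bp around the summit, had a median of 0.80 (quartiles 0.66 and 0.91) in DMSO and 0.86 (0.75 and 0.95) after dTAG with ab9110. It was 0.70 (0.51 and 0.82) with C29F4 and 0.77 (0.63 and 0.89) in the input. These quartile ranges overlapped between all lists. The median share of soft-masked bases in a member was 4.24 to 5.28% in the ChIP lists and 2.42% in the input.

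Of the 3472 ab9110 DMSO members, 2315 overlapped a dTAG peak by at least 1 bp, which is 66.7% (65.1 to 68.2%). The same held for 18.9% of all ab9110 DMSO peaks, for 39.5% of GC-poor promoter peaks (37.3 to 41.7%), for 26.2% of peaks in long repeats and for 11.3% of peaks elsewhere. The members' share was thus the highest of the classes. The intervals cover counting error only, and with 1 library per treatment the variation between libraries is unknown. When each DMSO summit was thinned to the dTAG coverage by computing its binomial chance of passing the dTAG threshold, 44.2% of members, 42.6% of GC-poor promoter peaks, 62.7% of long-repeat peaks and 36.0% of other peaks were expected to be kept. Members were the only class called after dTAG more often than this expectation. The 2 measures differ, since the expectation concerns the DMSO summit and called means 1 bp of overlap with any dTAG peak. The dTAG peaks were also wider at members (median 728 bp) than in the other classes (425 to 661 bp). With summits at most 250 bp apart, 56.9% of members were called after dTAG. Among the weakest quartile of DMSO members by −log10 q (the negative logarithm of the authors' q-value), 53.9% (50.5 to 57.3%) were called after dTAG where 11.7% were expected to be kept. In the strongest quartile the values were 82.8% (80.2 to 85.3%) and 88.9%. At GC-poor promoters, 16.9% of the weakest quartile were called with 10.7% expected, and 68.8% of the strongest with 89.9% expected.

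The reverse share was smaller. Of the 5514 ab9110 dTAG members, 2425 overlapped a DMSO peak, 44.0% (42.7 to 45.3%), close to the 46.8% of all dTAG peaks and below the 55.1% of GC-poor promoter peaks (52.1 to 58.0%). The other 3089 dTAG members had no DMSO peak. This share depended on how the lists were matched, since it was 22.4% after thinning the DMSO list to the coverage after dTAG, 26.1% with the DMSO list reduced to the size of the dTAG list and 27.0% where the overlap had to cover 50% of the peak. Members called after dTAG alone had a higher median GC content (66.1%) than those called in both (62.8%) and a nearly equal CpG ratio (0.86 against 0.85). Their median fold enrichment was lower (3.71 against 4.30). The fold is fragments at the summit over local background, with 1 added to each. The added 1 weighs more at low coverage, so folds of libraries that differ in depth are not on 1 scale. DMSO members without a dTAG peak (1157) had a median GC content of 60.8% and a CpG ratio of 0.71, against 63.0% and 0.84 for the 2315 called in both.

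Across all promoter peaks, the share of DMSO peaks called again after dTAG was 26.2% (21.1 to 31.9%) below 45% GC, 46.4% at 50 to 55%, 57.4% at 55 to 60%, 68.9% at 60 to 65%, 74.9% at 65 to 70% and 72.1% (68.0 to 76.0%) from 70% up. Within the members, the same share was 24.2% (18.7 to 30.4%) where the CpG ratio was under 0.4 and 82.9% (78.5 to 86.8%) where it was 1 or more. Overlap with C29F4 ran the other way. It was 8.07% (4.85 to 12.5%) of DMSO members with a CpG ratio under 0.4 and 1.18% (0.321 to 2.98%) at 1 or more. For dTAG peaks the share called in DMSO was 57.6% at 55 to 60% GC and 25.3% (22.8 to 27.9%) from 70% up, while it stayed between 35.5 and 46.9% in every class of CpG ratio. Whether the GC content of fragments was sampled alike in both libraries was not tested.

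**Figure D3:**
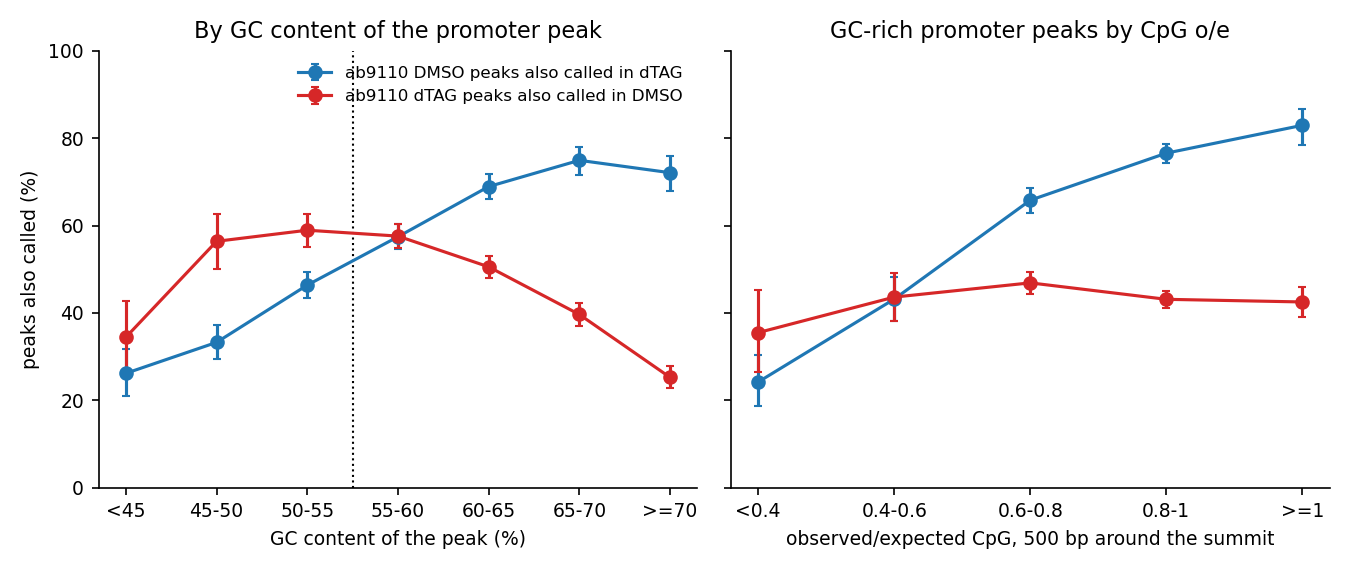
Share of ab9110 promoter peaks of one treatment that overlap a peak of the other, by GC content of the peak (left, the dotted line marks the 55% limit of the GC-rich class) and by observed over expected CpG (right, GC-rich peaks only), with exact 95% intervals. The share of DMSO peaks called after dTAG goes from 26.2% below 45% GC to 74.9% at 65 to 70%, and from 24.2 to 82.9% over the classes of CpG ratio.

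Levels were compared as scaled pileup, the fragments at the summit divided by the mean coverage of the library. There were 2086 pairs of members, 1 dTAG peak with the highest DMSO member it overlapped. The median scaled pileup was 10.4 in DMSO and 14.7 after dTAG, and the ratio of dTAG to DMSO had a median of 1.40 (quartiles 1.16 and 1.64). It was above 1 in 1842 pairs, 88.3% (86.8 to 89.7%). The median ratio was 1.24 at GC-poor promoters (412 pairs), 1.03 elsewhere (3444 pairs) and 0.458 in long repeats (1120 pairs), where 3.93% of pairs were above 1. Only sites called in both lists enter, and a dTAG peak needed at least 7 fragments, so weak sites count only where the dTAG value is high. Pairs of members that overlapped a C29F4 peak (70) had a median ratio of 0.970 (0.726 and 1.19), against 1.41 (1.18 and 1.65) for the other 2016. Their median scaled pileup was 13.8 in DMSO and 13.9 after dTAG, against 10.4 and 14.7 for the others. The C29F4 list that split the pairs also came from DMSO-treated cells.

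**Figure D4:**
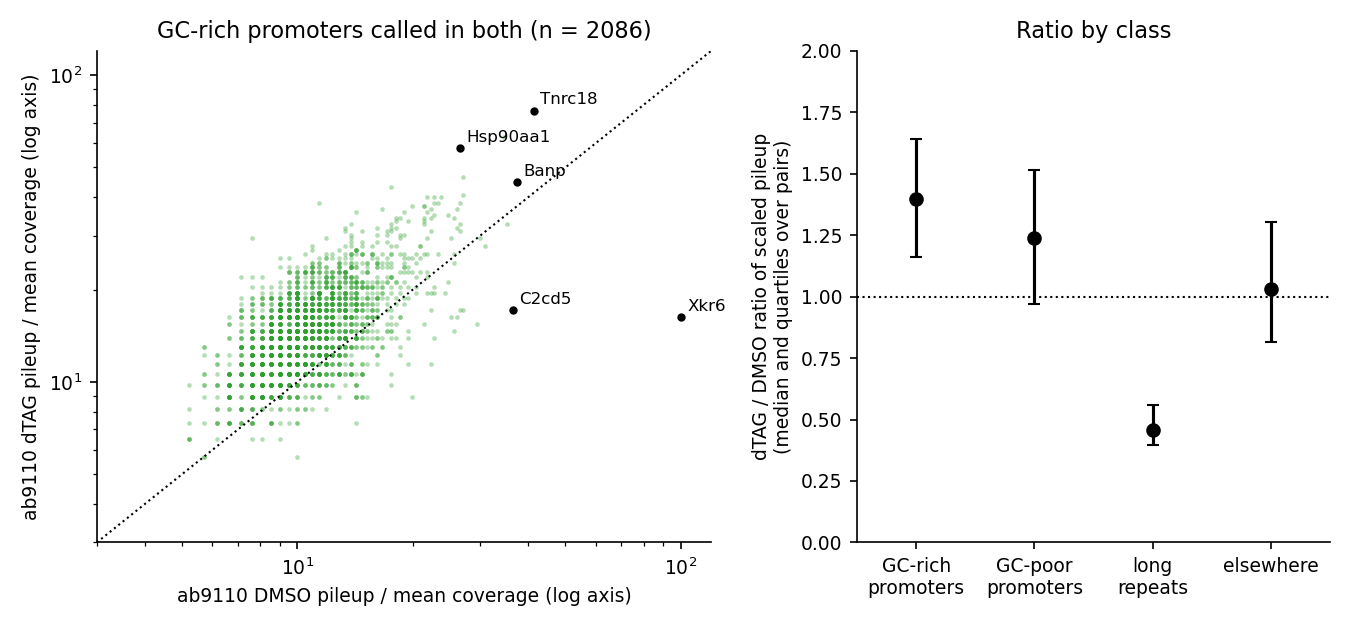
Left, scaled pileup (fragments at the summit over mean coverage, log axes) after dTAG against DMSO for the 2086 GC-rich promoters called in both, with the line of equal values dotted. Right, median and quartiles of the dTAG to DMSO ratio over pairs in each class, which is 1.40 at GC-rich promoters and 0.458 in long repeats. Xkr6 and C2cd5 lie far below the line, Tnrc18 and Hsp90aa1 above it.

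The local background that the peak caller assigned to members was also high. It had a median of 2.80 times the mean coverage in ab9110 DMSO, 2.60 times after dTAG and 3.25 times with C29F4, against 1.39, 1.45 and 1.64 times for peaks elsewhere. In the input, members had a median background of 1.54 times the mean coverage and a median pileup of 10 fragments. The part of this background in the counts of members was not tested.

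Few members coincided with input peaks. An input peak overlapped 1 of 133 C29F4 members (0.752% against 0.981% of all C29F4 peaks), 58 ab9110 DMSO members (1.67%, 1.27 to 2.15%, against 0.627% of all) and 61 dTAG members (1.11%, 0.847 to 1.42%, against 0.649% of all). From the input side, 59 of its 177 members (33.3%, 26.4 to 40.8%) overlapped an ab9110 DMSO peak and 55 (31.1%, 24.3 to 38.5%) a dTAG peak, against 12.6% and 5.17% of all input peaks. These shares were 18.6% and 15.7% at GC-poor promoters, 23.7% and 5.57% in long repeats and 6.07% and 1.02% elsewhere. The strongest input members lay at Rexo5 and Eri2, which share a start region, at Psmg1, which encodes a proteasome assembly chaperone, at Rbbp4, which encodes a histone-binding subunit of several chromatin complexes, and at Jcad. Their folds were 6.07, 5.41, 5.21 and 5.53, on 11, 12, 13 and 11 fragments. Of these, the Rexo5 peak overlapped a dTAG peak (fold 3.51) and the Psmg1 peak a DMSO peak (fold 2.64).

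With C29F4, 75.9% of the 133 members overlapped an ab9110 DMSO peak (67.8 to 82.9%, against 67.0% of all C29F4 peaks) and 59 an ab9110 dTAG peak (44.4%, 35.8 to 53.2%, against 21.7% of all). The same shares of C29F4 peaks were 76.5% and 34.0% at GC-poor promoters, 84.3% and 37.1% in long repeats and 60.2% and 15.2% elsewhere. Sorted by both, 52 members were called in both ab9110 lists, 49 in DMSO alone, 7 after dTAG alone and 25 in neither. Seen from the ab9110 side, C29F4 overlapped 4.35% of DMSO members (3.69 to 5.08%) and 2.16% of dTAG members (1.79 to 2.58%), below the 12.0% and 6.11% at GC-poor promoters and the 18.1% and 14.8% of all peaks of these lists. In long repeats the shares were 57.5% and 79.9%. A C29F4 peak was thus more frequent at GC-poor than at GC-rich promoters in both ab9110 lists.

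Xkr6, which encodes a member of the XK-related membrane protein family, had the highest member of both DMSO lists. Its peak, chr14:63605549-63606922 in ab9110 DMSO, lay with its summit in an intron, 302 bp from the nearest start. It held 637 fragments with C29F4 (fold 63.6), 211 with ab9110 in DMSO (fold 30.9) and 20 after dTAG (fold 4.93), and its ratio of scaled pileup, 0.163, was the lowest of the 2086 pairs. The highest ratio, 3.86, was at Gtpbp6, a gene for a GTP-binding protein, with 16 fragments in DMSO and 36 after dTAG. C2cd5, a gene for a C2-domain protein linked to insulin-stimulated glucose transport, held 162, 77 and 21 fragments in the same order, at chr6:143099597-143100361, with a ratio of 0.468. Both were chosen for mention after their values were seen, as the strongest members of a list, as were the genes of the next sentences. The highest dTAG members lay at Tnrc18, a gene for a protein of repressive chromatin, with 94 fragments (fold 29.8) against 87 in DMSO (fold 12.8), and at Hsp90aa1, which encodes the inducible HSP90 chaperone, with 71 (fold 19.7) against 56 (fold 6.69). Neither had a C29F4 or input peak. Banp, whose product binds unmethylated CTCGCGAG motifs in CpG-island promoters, held 79 fragments in DMSO and 55 after dTAG, with no C29F4 peak. Its scaled pileup was 37.5 in DMSO and 44.8 after dTAG.

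Of the 112 dTAG members that overlapped both a DMSO and a C29F4 peak and no input peak, the highest lay at Ndrg3, Grb10, Ywhag, Kdm3a, Mff and Rcc1l. At Ndrg3 the peak held 46 fragments after dTAG (fold 10.0), 31 in DMSO (fold 4.21) and 49 with C29F4 (fold 2.94). Grb10, an imprinted adaptor of insulin receptor signalling, had folds of 12.7 after dTAG, 3.12 in DMSO and 3.97 with C29F4. Ywhag, which encodes a 14-3-3 protein, had folds of 10.6, 4.15 and 2.7 in the same order. Kdm3a, which encodes an H3K9me2 demethylase and so opposes EHMT2, had the largest C29F4 value of the 6, 156 fragments (fold 13.0), beside 38 in DMSO (fold 7.61) and 31 after dTAG (fold 10.4). Mff, which encodes a mitochondrial fission factor, was the one with a higher fold in DMSO (16.4) than after dTAG (7.64).

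The dTAG members with no DMSO, C29F4 or input peak numbered 3057. The highest lay at Mga, Hnrnpa2b1, Qrich1, Srsf5, Gmcl1 and Hmgxb4, with 33 to 37 fragments and folds of 8.09 to 9.57. Mga encodes the scaffold of the PRC1.6 complex, which silences germline genes. The Hnrnpa2b1 peak also covered the start of Cbx3, the gene for the H3K9me reader HP1 gamma, and Srsf5 encodes a splicing factor. The least dTAG member held 7 fragments, and the DMSO library, in which none of these 6 was listed, had the higher coverage.

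The opposite set, DMSO members with a C29F4 peak and no dTAG or input peak, numbered 75. The highest lay at Net1, Scml2, Rab7, Wdr36, Man1a2 and Acsl6. Net1, which encodes a RhoA exchange factor, held 43 fragments in ab9110 DMSO (fold 7.90) and 89 with C29F4 (fold 5.30). Scml2, an X-linked Polycomb gene of the male germline, held 34 (fold 8.90) and 86 (fold 12.0), with its summit 0 bp from the start and a CpG ratio of 0.47. At Acsl6, an acyl-CoA synthetase gene, the CpG ratio was 0.20 and the folds 7.21 and 2.12. Rab7 had the most DMSO fragments of the 6, 60.

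C29F4 alone called 25 members, of which the highest lay at Olfm3, F2, Cplx1 and Pabpc6, with 28 to 53 fragments and folds of 3.00 to 4.96. Olfm3 and Cplx1 are neuronal genes, and F2 encodes prothrombin of the liver. Over all C29F4 members the median fold was 3.20 (quartiles 2.75 and 4.09).

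By gene, a GC-rich promoter peak was found at 140 genes with C29F4, 3857 in ab9110 DMSO, 6061 after dTAG and 205 in the input. Some of these genes had no GC-rich start, defined as a start in a 1000 bp window of 55% GC or more. Of the 12832 genes with such a start, a peak was found at 112 with C29F4 (0.873%), 3320 in DMSO (25.9%), 5581 after dTAG (43.5%) and 189 in the input (1.47%). Both ab9110 lists held 2320 of these genes (18.1%), DMSO alone 1000 (7.79%), dTAG alone 3261 (25.4%) and neither 6251 (48.7%). A gene counts for a list only where the peak of that list itself meets the GC limit and the other parts of the rule. The peaks of 278 of the 3261 genes (8.52%) and of 129 of the 1000 (12.9%) overlapped a peak of the other treatment that was not counted for the gene. By chromosome, the dTAG share ran from 39.5% (chromosome 6) to 57.5% (chromosome 8) over the autosomes and was 22.9% of 367 genes on X, whereas the DMSO share was 21.8% on X and 21.7 to 33.3% on autosomes. The copy number of X in this line was not measured.

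Several gene groups, chosen with earlier results of these data known, were frequent among the dTAG members. Of the 15 gene lists, 11 had a share above the 43.5% of all genes with a GC-rich start, 8 of them with their whole interval, and 1 lay below with its whole interval. Among the 8 were the H3K9 methylation machinery, E2F6 and PRC1.6, and zinc finger lists. The intervals of proteasome genes (35.7 to 73.6%) and mitochondrial ribosomal protein genes (37.9 to 68.3%) spanned 43.5%. In DMSO, 14 lists lay above 25.9%, 4 of them with their whole interval. Ribosomal protein genes had a dTAG peak at 49 of 64 (76.6%, 64.3 to 86.2%) and a DMSO peak at 24 (37.5%, 25.7 to 50.5%). The highest, Rps29, held 28 fragments after dTAG (fold 9.01) and was not a DMSO member. Genes of splicing factors had a dTAG peak at 42 of 54 (77.8%, 64.4 to 88.0%) and a DMSO peak at 19 (35.2%), led by Hnrnpa2b1 and Srsf5, then Srsf3 (fold 8.17 after dTAG, 2.55 in DMSO). Translation initiation factor genes followed with 33 of 46 (71.7%, 56.5 to 84.0%) and 14 (30.4%). Among them Eif4a1, which encodes the helicase of the cap-binding complex, had folds of 6.76 and 2.2 (scaled pileup 18.7 and 12.8). Replication licensing genes had 12 of 16 and 5, with Cdt1, the MCM loading factor, at folds of 7.43 and 2.36.

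In the genes of mitochondria and protein turnover, the lists were closer to each other. Oxidative phosphorylation genes had a dTAG peak at 38 of 59 (64.4%, 50.9 to 76.4%) and a DMSO peak at 34 (57.6%, 44.1 to 70.4%). Ndufa13, a complex I subunit gene, held 46 and 45 fragments, a scaled pileup of 37.5 after dTAG and 21.4 in DMSO (folds 5.86 and 4.29). Mitochondrial ribosomal protein genes had 24 of 45 (53.3%) and 25 (55.6%), with Mrpl34 at 43 and 52 fragments. Proteasome genes had 16 of 29 and 12, and Psma2 shares its peak with Mrpl32. Immediate early genes had 12 of 20 and 7, led by Jund and Junb, which encode AP-1 subunits, with folds of 6.45 and 4.60 after dTAG.

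Developmental regulators were rare. Homeobox, paired box, T-box and GATA factor genes had a dTAG peak at 8 of 92 (8.70%, 3.83 to 16.4%), a DMSO peak at 3 (3.26%, 0.678 to 9.23%) and no C29F4 or input peak. Among the highest were Six5 (15 fragments), Dlx2 (13) and Lhx2 (10), beside a least height of 7 in the list. Their promoters thus passed the same GC limit but were listed far less often than the 43.5% of all such genes. Pluripotency factor genes had 6 of 15 (40.0%, 16.3 to 67.7%) and 5 (33.3%), with Klf2, Tcf7l1, Sox2 and Klf4 as the highest after dTAG, at folds of 3.56, 3.71, 3.58 and 3.54.

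Clustered histone genes showed the opposite order, with a DMSO peak at 19 of 29 (65.5%, 45.7 to 82.1%) and a dTAG peak at 9 (31.0%, 15.3 to 50.8%). However, the DMSO peaks of all 13 genes counted in DMSO alone overlapped a dTAG peak that was not counted for the gene, so that the order holds for peaks that meet the rule. Their near-identical copies share reads, so which copy holds a peak is uncertain. Hist1h2af, the highest after dTAG, held 21 fragments. Germline and meiosis genes had 8 of 25 in DMSO (32.0%, 14.9 to 53.5%) and 6 after dTAG (24.0%, 9.36 to 45.1%), and 3 with C29F4 (12.0%, 2.55 to 31.2%, against 0.873% of all). The C29F4 members were Ddx4, Dazl and Taf7l, which encode germ cell RNA-binding proteins and a TFIID subunit paralog. Ddx4 held 41 fragments with C29F4, 21 in DMSO and 13 after dTAG (scaled pileup 11.3, 9.97 and 10.6). Dazl held 36 with C29F4 and was a member of neither ab9110 list. Taf7l held 17 with C29F4 and 10 in DMSO and was not a dTAG member. The highest germline genes after dTAG were others, Stag3, Tex15 and Tex19.1, which were not C29F4 members. Scaled pileup was 17.9 after dTAG and 11.4 in DMSO at Stag3, and 14.7 and 12.3 at Tex15. At Tex19.1 it was 12.2 after dTAG, with no DMSO member.

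Genes of the H3K9 methylation machinery had a dTAG peak at 18 of 27 (66.7%, 46.0 to 83.5%) and a DMSO peak at 12 (44.4%, 25.5 to 64.7%). Kdm3a was counted after dTAG alone, since its DMSO peak (38 fragments) and its C29F4 peak (156) did not meet the rule. Ehmt1, the partner of EHMT2, held 28 fragments after dTAG (fold 7.32) and 22 in DMSO (fold 3.13). Adnp, which encodes a chromatin repressor that binds HP1, held 22 and 21 (folds 6.03 and 4.06). The E2F6 and PRC1.6 genes, whose products silence germline promoters, had 10 of 13 (76.9%, 46.2 to 95%) and 5, with Max at 41 and 45 fragments (folds 10.0 and 3.08). Zinc finger protein genes had 106 of 199 (53.3%, 46.1 to 60.4%), 81 (40.7%) and 5 with C29F4 (2.51%, 0.821 to 5.77%). Zfp518a held 52 fragments with C29F4, 62 in DMSO and 19 after dTAG. The pair at Zfp518a thus had a ratio of scaled pileup of 0.526, among the 6 lowest, although its fold was 5.25 in DMSO and 6.84 after dTAG. The highest zinc finger genes after dTAG had more scaled pileup there than in DMSO. The values were 26.1 against 14.2 at Zfp1, 26.1 against 16.6 at Zfp524, 17.9 against 9.49 at Zfp189 and 26.1 against 23.3 at Zfp868.

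Heat shock protein and co-chaperone genes were listed after their members were seen among the highest peaks, so their counts are a description. They had a dTAG peak at 28 of 39 (71.8%), a DMSO peak at 21 (53.8%) and an input peak at 3. Hspd1 and Hspe1, which encode mitochondrial HSP60 and HSP10 and share a start region, held 77 fragments after dTAG, 73 in DMSO and 10 in the input. The scaled pileups there were 62.8, 34.6 and 10.2. St13, an HSP70-interacting protein gene, held 57 in each ab9110 list, a scaled pileup of 46.5 after dTAG and 27.1 in DMSO. Chaperonin genes, listed in the same way, had 6 of 7 and 4.

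**Figure D5:**
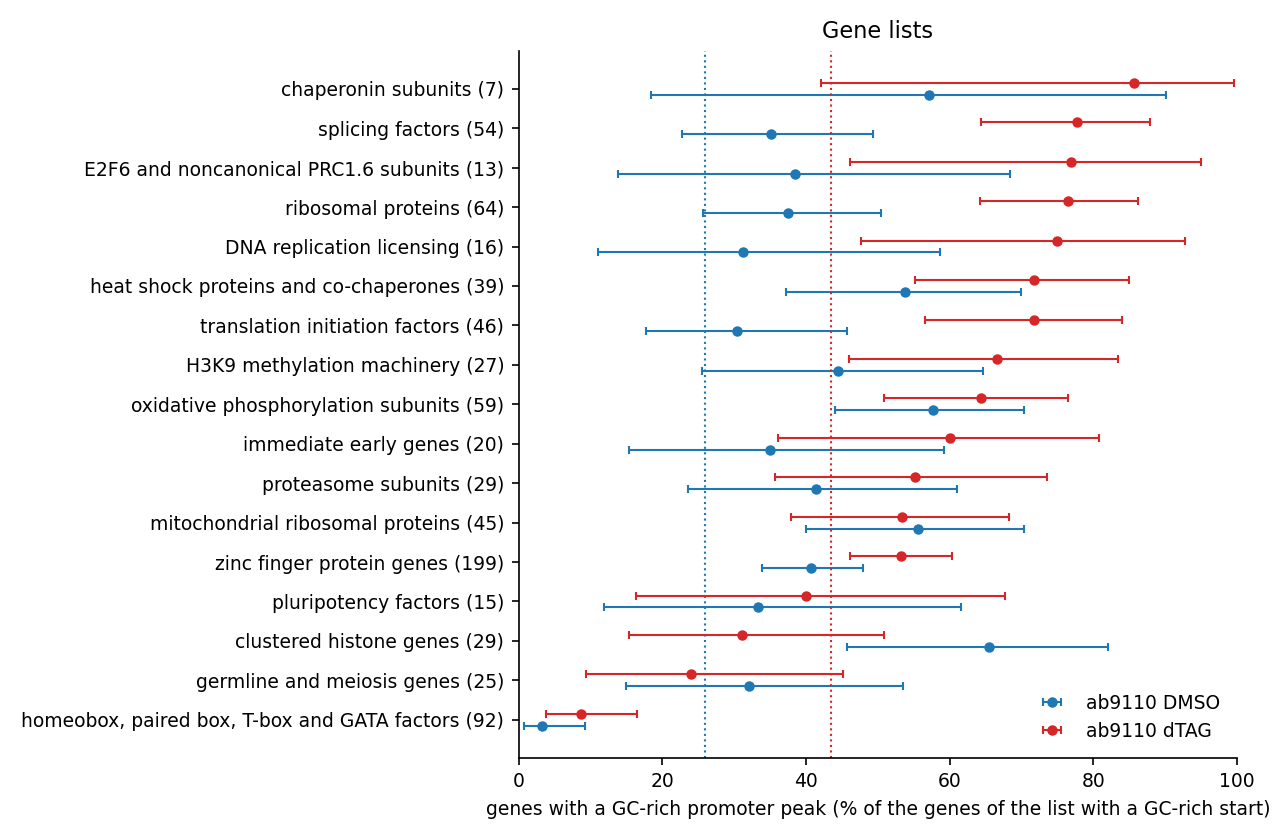
Share of the genes with a GC-rich start that have a GC-rich promoter peak, by gene list (number of genes in brackets), in ab9110 DMSO and dTAG, with exact 95% intervals; dotted lines are the shares over all 12832 genes, 25.9% and 43.5%. Splicing and ribosomal protein genes lie to the right after dTAG, homeobox and related factors to the far left in both lists.

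Short motifs were searched on both strands in 100 bases on either side of each summit, as a description of letters only. The same was done at a start of each of the 12832 genes, its start with the highest GC content in 1000 bp. Windows at summits and windows at starts differ in position as well as in how they were chosen. The NRF1 motif GCATGCGC was in 2.95% of start windows (2.66 to 3.25%), 7.60% of DMSO members (6.74 to 8.54%), 6.66% of dTAG members (6.01 to 7.35%) and 3.39% of input members (1.25 to 7.23%). It was in 9.69% of dTAG members called in both lists (8.54 to 10.9%) and 4.27% of those called after dTAG alone (3.59 to 5.05%). The E-box CACGTG was in 6.18% of start windows, 11.5% of DMSO and 9.65% of dTAG members. The YY1 motif AAGATGGCG was in 2.75%, 4.32% and 3.65%, and the ETS motif CCGGAAG in 11.5%, 13.7% and 13.0%.

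In the ChIP lists, the GC box, CCAAT and TATA motifs were less frequent at members than in start windows. The GC box was also less frequent at input members. The GC box GGGCGG was in 62.7% of start windows, 59.5% of dTAG, 49.6% of DMSO and 39.8% of C29F4 members (31.5 to 48.7%). CCAAT was in 20.1%, 14.7%, 15.9% and 11.3%, and TATAAA in 2.51%, 1.38%, 1.53% and 0.752%, in the same order. Of input members, 52.0% (44.4 to 59.5%) had the GC box, 24.3% (18.2 to 31.3%) CCAAT and 1.13% (0.137 to 4.02%) TATAAA. For CTCGCGAG the shares were 1.25% of start windows, 1.31% of dTAG and 1.21% of DMSO members. TTCCCGC, the E2F motif, was in 6.69%, 7.65% and 7.49%, and TGACGTCA in 1.82% (1.6 to 2.07%), 2.16% (1.79 to 2.58%) and 2.65% (2.14 to 3.24%). The heat shock element GAANNTTC, added after the heat shock genes were seen, was in 2.27% of start windows (2.02 to 2.54%), 3.40% of DMSO members (2.82 to 4.06%), 2.72% of dTAG members and 6.21% of input members (3.14 to 10.8%). It was in 8 of the 27 dTAG peaks of the heat shock list (29.6%, 13.8 to 50.2%). In the dTAG list, members with GCATGCGC had a median fold of 4.45 against 3.91 without it, and 64.0% of them (58.9 to 68.9%) were called in DMSO against 42.5% (41.2 to 43.9%).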

How the data were processed

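HA ChIP-seq and input samples were grouped by antibody and treatment from the labels (8 samples in all). C29F4 inputs and the ab9110 DMSO input were not analysed here as peak lists. The authors aligned reads to mm10 so that a multimapping read went to 1 location, removed duplicates and blacklisted reads, and called peaks with MACS2, and the submitters' processing notes name STAR 2.7.10, Picard 2.26.0, SAMtools 1.14, bedtools 2.30.0, MACS2 2.2.6 and deepTools 3.5.1. The deposited lists give per peak the fold enrichment (a ratio of pileup to background, 1 added to each), −log10 p and −log10 q at the summit, and the summit offset. Peaks had a q-value under 0.05. Whether an input entered the calls is not given in the sources used here.

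From the deposited values, summit pileup and background were solved from fold enrichment and the Poisson p-value, and the lowest background served as mean coverage. GC content, CpG ratio and soft-masking came from the RefSeq copy of GRCm38 (mm10), and starts and exons from GENCODE M21. The 8 peaks on other sequences stayed unclassed. Peaks overlapped where they shared 1 bp. Scripts (Python 3.11.15, numpy 2.4.6, scipy 1.17.1, pandas 2.3.3) were tested on simulated peaks and against bedtools 2.31.1. Fragments without molecular identifiers are not independent molecules, so intervals cover counting error only. No replicate test was possible with 1 list per condition.

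Members and lists were chosen with earlier results of these data known. The named peaks were the highest by −log10 q within each pattern of overlap between lists (6 each for peaks called in all ChIP lists, after dTAG alone, and in both DMSO lists alone; 4 each for C29F4 alone and input) and up to 4 genes per gene list. Sequences were those of the first such peak outside chromosome 18 with no exon within 50 bases of the summit. Some items that these rules select are not reported here. Cyr61, Meiosin and Tasor were not matched to the annotation. Alternatives varied the q-value, the distance to a start, the GC limit, the overlap definition and the depth of the DMSO list.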

Additional observations from a re-analysis of the deposited data

How the results depend on the processing

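Of 106 recomputed values, 50 stayed within the interval of the reported share, or within 1.5 times the reported count, and 56 did not. No paired analysis was possible because the 2 C29F4 replicates share 1 merged list and no result comes from a test, and for the same reason no replicate could be left out. With q under 0.01, the share of the list at GC-rich promoters was 10.3% in ab9110 DMSO, 44.2% after dTAG and 5.67% (32 peaks) in the input. With q under 0.001 it was 10.9% (1605 peaks), 50.9% (3038) and 2.63% (5). A start within 500 bp gave 8.01% (DMSO) and 32.2% (dTAG). A GC limit of 60% left 76 C29F4 peaks (0.690%) and 2276 DMSO peaks (5.58%), with 25.8% of the dTAG and 6.10% of the input list. GC measured in 500 bp gave 1.52%, 8.85% and 34.7% for C29F4, DMSO and dTAG. In every one of these settings the dTAG share stayed the highest of the 4 lists.

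The share of DMSO members called after dTAG was 61.9% at q under 0.001, 62.4% with 50% overlap, 56.9% with summits at most 250 bp apart, 71.5% at GC of 60% or more, 76.3% with the DMSO list cut to the dTAG list's size and 74.7% after thinning. The share of dTAG members called in DMSO was 38.4% at q under 0.01, 34.0% at 0.001, 27.0% with 50% overlap, 37.4% by summits, 39.8% at GC of 60% or more, 42.0% by genes, 26.1% at equal size and 22.4% after thinning. For C29F4 members, the share called in ab9110 DMSO was 63.9% by summits, 65.4% at equal size, 55.8% after thinning and 64.3% by genes, and that called after dTAG 30.6% at q under 0.001 and 34.6% by summits. The share of ChIP members that overlapped an input peak stayed under 2% throughout. The input list was short, with 177 members and 5 at q under 0.001, so these settings could hardly give a larger share. The cause of these movements was not tested.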
